A study of Mus musculus with 8 samples.

Results

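The genes examined here encode enzymes that extend, sialylate, fucosylate or sulfate glycan chains. They were taken by symbol, as every row of the expression table whose name starts with Galnt, B3galt, B4galt, B3gnt, St3gal, St6gal, St6galnac, Fut or Chst followed by a number. This gave 72 genes in 9 families out of 36333 rows, on 19 chromosomes. Bulk RNA sequencing had been done on ventral prostate lobes of 12-month-old mice, from 4 hSKP2-KI and 4 WT animals with one library per mouse, to ask what human SKP2 changes in the prostate. SKP2 is the substrate-recognition subunit of an SCF ubiquitin ligase, and the hSKP2-KI mice carried a P2A-human SKP2 coding sequence inserted by CRISPR/Cas9 into exon 1 of the X-linked mouse probasin gene, so that the endogenous probasin promoter of prostate epithelium drove it. The lines had been crossed to FVB/N, and the WT mice had no insert. Which of the founder lines gave the sequenced lobes is not given in the sources used here, so a feature of one line and an effect of SKP2 cannot be told apart. The insert lies in the probasin gene itself, and the row named Pbsn had 115 ± 39.6 TPM in hSKP2-KI and 5984 ± 2447 TPM in WT prostates (SD). Gain of human SKP2 and lower probasin cannot be told apart in any comparison here. The whole lobe was homogenised, and fewer cells of a type and less RNA per cell cannot be told apart in any value given here.

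Glycan chains are built in the Golgi by transferases that each add one sugar from a nucleotide-sugar donor to a particular acceptor. The GALNT enzymes start mucin-type O-glycans by placing N-acetylgalactosamine on serine or threonine, the galactosyl- and N-acetylglucosaminyltransferases lengthen chains on proteins and lipids, and the sialyl-, fucosyl- and sulfotransferases mostly act late and cap or decorate them. The prostate is a secretory gland whose luminal cells release heavily glycosylated proteins, and its stroma holds sulfated proteoglycans.

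The values are TPM, which divides the reads on a gene by transcript length and gives every library the same total, so levels of different genes can be compared and the read depth behind a value is unknown. The summed level of the secretory genes Sbp, Sbpl, Spink1 and Pbsn lay between 321289 and 343531 TPM in hSKP2-KI prostates and between 413388 and 462687 TPM in WT prostates. With a fixed total, less of these transcripts raises the TPM of the others, and the median log2 fold change of all genes tested was 0.23. Results on the members are therefore given in the TPM as deposited and again after median-ratio scaling, which put that median at -0.01. The row named Skp2 lay between 37.3 and 60.6 TPM in hSKP2-KI prostates and between 1.05 and 2.27 TPM in WT prostates, and Pbsn between 93.0 and 174 against between 3980 and 9232 TPM, so both rows separate the genotypes as labelled. Seminal vesicle genes (Svs1, Svs2, Svs4, Svs5 and Svs6), the adjacent gland, summed to at most 0.656 TPM in any sample.

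Of the 72 genes, 49 reached 1 TPM in at least 4 samples and were tested. In the TPM as deposited 21 of the 49 rose and 0 fell (limma on log2(TPM + 1), adjusted p under 0.05). These are 42.9% of the members, against 32.7% of all 13080 genes tested that rose and 1.23% that fell, so much of the members' count is shared with the table as a whole. Members rose in 8 of the 9 families, the exception being B3galt. At an unadjusted p under 0.05 in the same limma fit, 24 members were higher and 0 lower. The share of all genes at that threshold was not counted, so this count cannot be set against the table as a whole. The median log2 fold change of the members was 0.34 beside 0.23 for all genes.

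After median-ratio scaling 6 members rose (12.2%, beside 6.92% of all genes) and 1 fell (2.04%, beside 4.25% of all genes), with a median of 0.11 beside -0.01. The 6 were the GalNAc transferase Galnt15, the galactosyltransferases B4galt4 and B4galt5, the sialyltransferase St3gal1, the fucosyltransferase Fut8 and the sulfotransferase Chst15, and the 1 that fell was Galnt10. Quantile normalization and rescaling without the 20 most abundant genes each left Galnt15, B4galt4, B4galt5 and Fut8 among the calls, so that 4 members (8.16%) passed in the deposited TPM and under all 3 other scalings, beside 4.82% of all genes. The samples of the genotypes did not overlap for 22 members in the TPM as deposited (44.9%, all higher in hSKP2-KI, beside 34% of all genes). After median-ratio scaling 14 members were higher without overlap (28.6%, beside 10.3% of all genes), and Galnt10 alone was lower (2.04%, beside 8.91%). St3gal4 and Fut10 passed the filter on low values only through their 4 hSKP2-KI samples, so their difference was partly set by the filter, and without both 20 of 47 members rose in the TPM as deposited (42.6%). Both are also among the 22 and the 14 members without overlap, so those shares rest partly on the filter too.

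**Figure D1:**
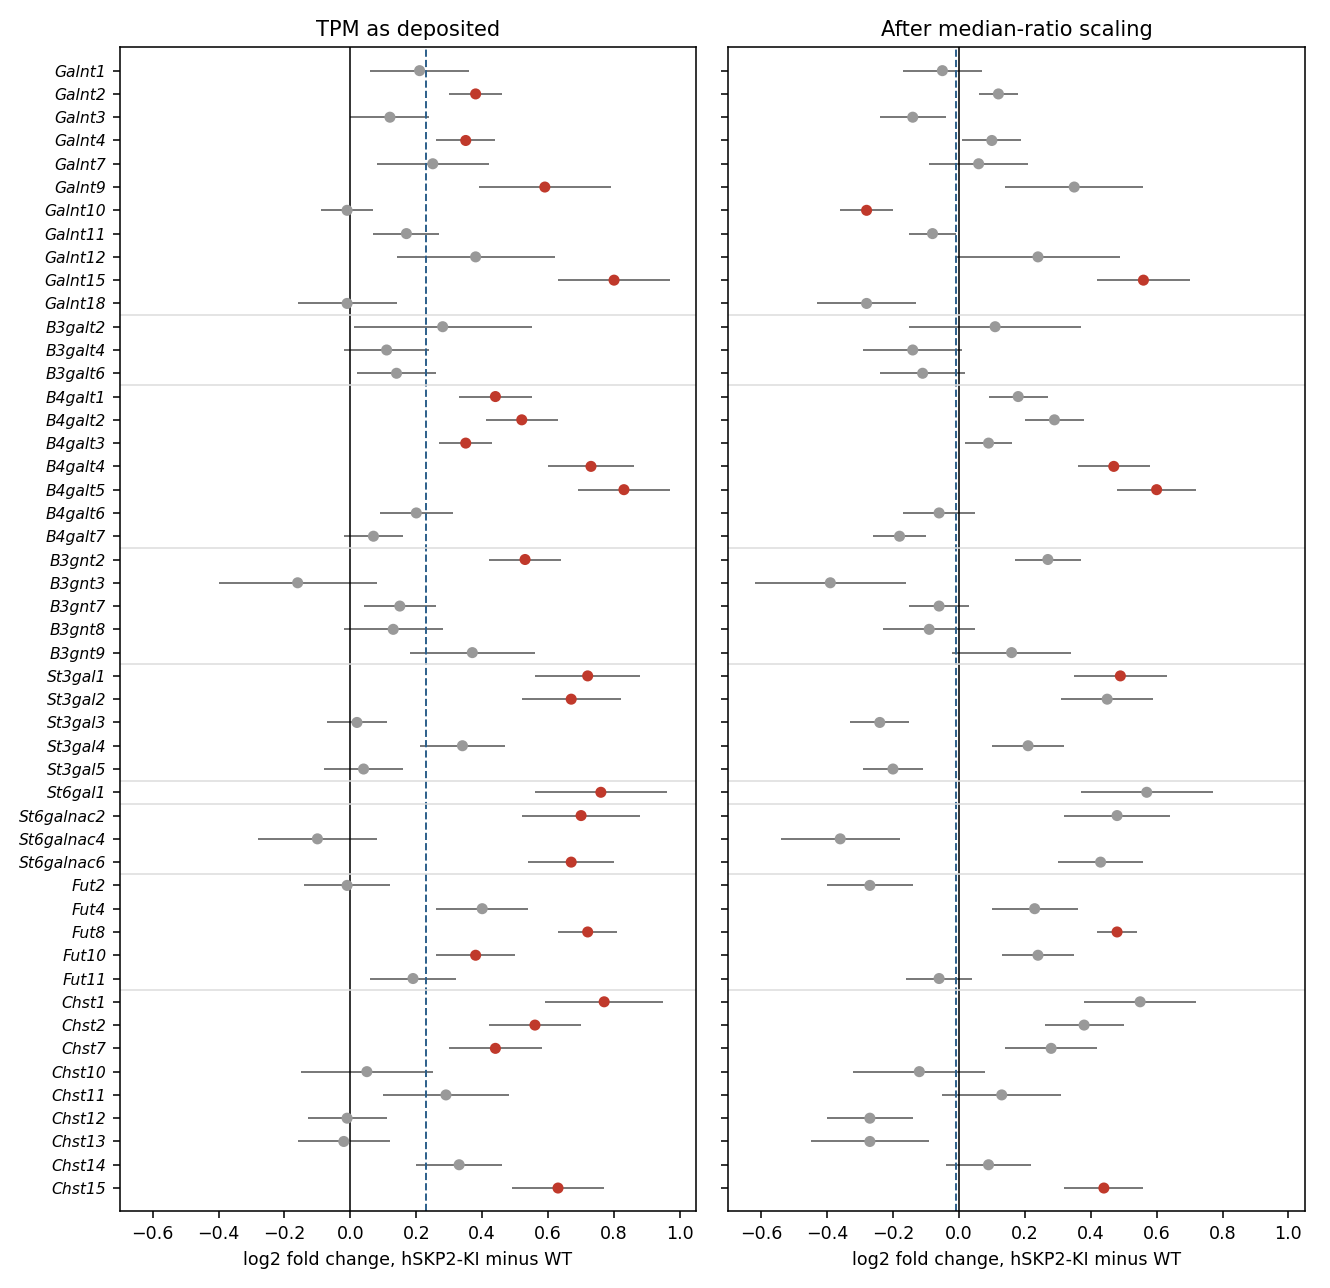
Log2 fold change (hSKP2-KI minus WT, x axis) of the 49 tested genes with its standard error, in the TPM as deposited (left) and after median-ratio scaling (right). Red points have an adjusted p under 0.05, the solid line marks 0 and the dashed line the median of all 13080 genes tested (0.23 left, -0.01 right). Of the 21 red points on the left 6 stay red on the right, where Galnt10, not red on the left, is the 1 lower call, and Fut8 has the shortest error bar of those that stay.

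The families differed widely in level. Summed over members, the Galnt genes had 353 ± 31.5 TPM in hSKP2-KI and 315 ± 26.1 TPM in WT prostates (SD, n = 4 each, as in all pairs that follow). The B4galt genes had 165 ± 7.68 against 123 ± 11.5 TPM, the Fut genes 81.4 ± 6.10 against 72.2 ± 9.29 TPM and the Chst genes 78.8 ± 9.92 against 68.4 ± 2.64 TPM. The St3gal sum was 47.6 ± 5.80 against 40.4 ± 2.58 TPM, the B3gnt sum 45.8 ± 5.66 against 36.0 ± 4.20 TPM and the St6galnac sum 38.1 ± 2.59 against 30.9 ± 4.64 TPM. The low end was the B3galt sum, 25.8 ± 3.88 against 22.5 ± 1.24 TPM, and the St6gal sum, 3.88 ± 0.544 against 2.02 ± 0.818 TPM. The Galnt family thus had the highest sum and the St6gal family the lowest. These sums cover 16 Galnt genes and 2 St6gal genes, so the ranking depends in part on the number of genes in each family. The B3galt, B4galt, B3gnt and St6gal sums did not overlap between genotypes in the TPM as deposited. After median-ratio scaling all 9 sums overlapped.

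**Figure D2:**
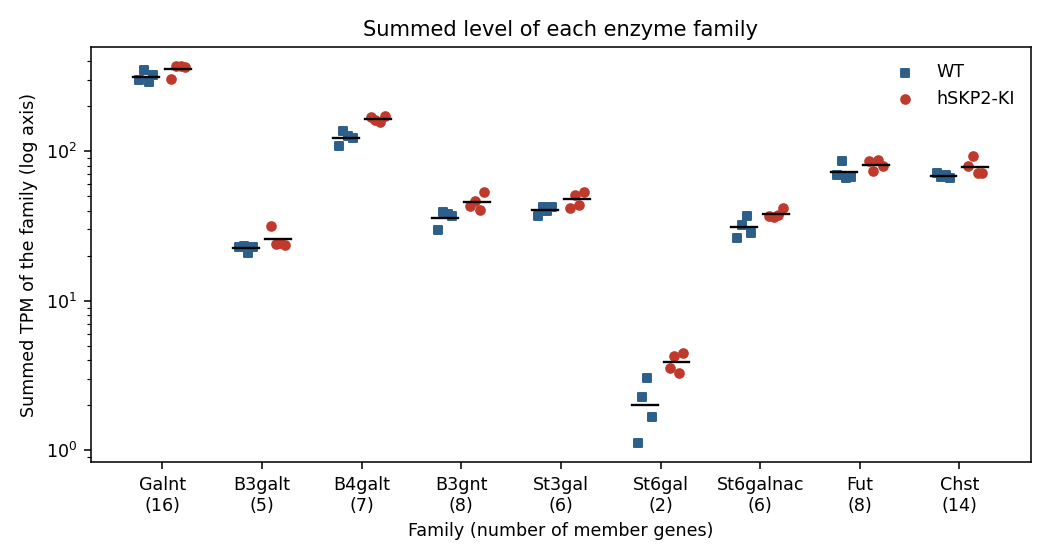
Summed TPM of each family (log axis) in every sample, with WT as blue squares, hSKP2-KI as red circles and a bar at each mean. The B4galt sums lie between 156 and 172 in hSKP2-KI and between 108 and 136 in WT prostates, and the Galnt sums, the highest, overlap.

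The 23 genes below the filter were B3galt1, B3galt5, B3gnt4, B3gnt5, B3gnt6, Chst3, Chst4, Chst5, Chst8, Chst9, Fut1, Fut7, Fut9, Galnt5, Galnt6, Galnt13, Galnt14, Galnt16, St3gal6, St6gal2, St6galnac1, St6galnac3 and St6galnac5. No sample of these exceeded 2.87 TPM, the level of Galnt16 in hSKP2-KI replicate 4. For 5 of the 23 at least 1 sample reached 1 TPM. St6galnac1 was listed at 0 in all 8 samples. The low genes include Fut7, which makes selectin ligands in leukocytes, and Chst4, which sulfates them in high endothelial venules.

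Among the 16 Galnt genes 11 were tested, and 4 of them (Galnt2, Galnt4, Galnt9 and Galnt15) rose in the TPM as deposited. Galnt15 (Entrez 78754, GRCm38 chr14:32028782-32062204), a member of the GalNAc transferase family, had 7.19, 11.7, 9.06 and 11.8 TPM in the hSKP2-KI samples and 3.88, 5.94, 5.10 and 6.12 TPM in the WT samples. The genotypes were apart, with replicates 2 and 4 the highest of the knock-in. Galnt15 rose by 0.80 ± 0.17 on the log2 scale (SE, adjusted p = 0.00738) and, with the libraries median-ratio scaled, by 0.56 ± 0.14 (adjusted p = 0.0338). In that scaling the call was lost without hSKP2-KI replicate 2, 3 or 4 or WT replicate 1, 2 or 3, with adjusted p from 0.0176 to 0.0868 over the 8 fits. The other scalings left it narrowly under the threshold, with adjusted p of 0.0453 under quantile normalization and 0.0489 without the 20 most abundant genes. Galnt15 made up 2.80% ± 0.462 of the family's TPM in hSKP2-KI and 1.67% ± 0.259 in WT prostates.

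Galnt18 (Entrez 233733, chr7:111471656-111780067), the most abundant member of all families, had 84.9, 124, 129 and 130 TPM in hSKP2-KI and 126, 130, 91.2 and 123 TPM in WT samples. The ranges coincided, with 1 low sample in each genotype, and the log2 fold change was -0.01 ± 0.15 (adjusted p = 0.949; -0.28 and 0.255 after scaling). It held 32.9% ± 3.56 of the family's TPM in hSKP2-KI and 37.3% ± 4.25 in WT prostates. Galnt2, a broadly expressed starter of O-glycans, came next at 62.4 ± 3.87 against 47.7 ± 3.47 TPM and rose by 0.38 ± 0.08 (adjusted p = 0.0069), but by 0.12 ± 0.06 (adjusted p = 0.262) after scaling. Galnt10 had 51.1, 53.7, 53.0 and 45.4 TPM in hSKP2-KI and 46.5, 51.3, 53.6 and 53.9 TPM in WT samples, which overlapped. The genotypes differed by -0.01 ± 0.08 (adjusted p = 0.89) in these values, while the scaled values differed by -0.28 ± 0.08 (adjusted p = 0.048). That call was lost whichever of the 8 samples was left out (adjusted p 0.0551 to 0.112), and it was not made under quantile normalization (0.0706) or without the 20 most abundant genes (0.0664). The call of Galnt9 in the TPM as deposited (9.43 ± 3.76 against 5.67 ± 0.764 TPM, adjusted p = 0.0443; 0.319 after scaling) was kept in 1 of 8 fits with a sample left out, the one without hSKP2-KI replicate 1, and adjusted p reached 0.0923 in the others. The other 6 (Galnt1, Galnt3, Galnt7, Galnt11, Galnt12 and Galnt18) passed in neither scaling.

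The B4galt family, which adds galactose mostly to N-acetylglucosamine, was the only one of which all members were tested, and 5 of its 7 rose in the TPM as deposited. B4galt5 (Entrez 56336, chr2:167298444-167349178), a lactosylceramide synthase of the glycosphingolipid pathway, had 6.72, 9.43, 6.57 and 7.72 TPM in hSKP2-KI and 3.09, 4.69, 3.94 and 3.63 TPM in WT samples. The lowest knock-in sample was above the highest WT sample. Its log2 fold change of 0.83 ± 0.14 (adjusted p = 0.00306) was the largest among the members, and scaling left 0.60 ± 0.12 (adjusted p = 0.0131). It passed in 8 of 8 fits with a sample left out in both scalings. Its share of the family's TPM was 4.62% ± 0.841 in hSKP2-KI and 3.09% ± 0.261 in WT prostates.

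B4galt4 (Entrez 56375, chr16:38742220-38769054), which can add galactose to sulfated N-acetylglucosamine, had 35.9, 29.1, 28.9 and 36.2 TPM in hSKP2-KI and 17.4, 24.3, 16.6 and 19.0 TPM in WT samples. The genotypes did not overlap, and WT replicate 2 came nearest to the knock-in. B4galt4 rose by 0.73 ± 0.13 (adjusted p = 0.00355), and by 0.47 ± 0.11 (adjusted p = 0.0252) after scaling, where the call was lost without hSKP2-KI replicate 1 or 4 or WT replicate 1, 3 or 4 (adjusted p 0.0237 to 0.0663 over the 8 fits). B4galt3 (Entrez 57370, chr1:171270328-171276895), the family's most abundant member, had 39.1, 38.0, 34.5 and 35.8 TPM in hSKP2-KI and 25.6, 31.1, 28.0 and 30.0 TPM in WT samples. These did not overlap and differed by 0.35 ± 0.08 (adjusted p = 0.0117), but by 0.09 ± 0.07 (adjusted p = 0.421) after scaling.

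B4galt1, which joins alpha-lactalbumin to form lactose synthase in the mammary gland and galactosylates N-glycans elsewhere, rose by 0.44 ± 0.11 (adjusted p = 0.013; 0.217 after scaling). B4galt2 rose by 0.52 ± 0.11 (adjusted p = 0.00723; 0.0644 after scaling). B4galt6, the other lactosylceramide synthase, had 29.7 ± 3.13 against 25.9 ± 3.47 TPM (adjusted p = 0.167; 0.757 after scaling), and B4galt7, which adds the first galactose of the proteoglycan linker, 17.0 ± 1.58 against 16.1 ± 1.09 TPM (adjusted p = 0.548; 0.187 after scaling). Of the 3 B3galt genes tested none passed in either scaling, and their log2 fold changes lay between 0.11 and 0.28 as deposited and between -0.14 and 0.11 after scaling. The most abundant, B3galt4 (Entrez 54218, chr17:33949912-33951488), a ganglioside galactosyltransferase, had 15.4, 11.2, 10.5 and 9.51 TPM in hSKP2-KI and 11.6, 10.8, 10.1 and 9.85 TPM in WT samples, which overlapped. B3galt2 (Entrez 26878, chr1:143640697-143649937) had 1.81, 1.79, 1.78 and 3.89 TPM in hSKP2-KI and 1.25, 2.72, 0.695 and 2.45 TPM in WT samples, which overlapped and differed by 0.28 ± 0.27 on the log2 scale (adjusted p = 0.407; 0.11 and 0.824 after scaling).

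Of the 5 B3gnt genes tested, 1 rose. B3gnt2 (Entrez 53625, chr11:22834739-22860336), the main enzyme that adds N-acetylglucosamine in polylactosamine, had 23.9, 26.4, 23.9 and 33.1 TPM in hSKP2-KI and 16.4, 20.2, 18.5 and 17.7 TPM in WT samples. No WT sample reached the knock-in range. B3gnt2 rose by 0.53 ± 0.11 (adjusted p = 0.00789), and the scaled values differed by 0.27 ± 0.10 (adjusted p = 0.0967). B3gnt2 held 58.4% ± 2.81 of the B3gnt sum in hSKP2-KI and 50.8% ± 3.25 in WT prostates. B3gnt3, which extends core 1 O-glycans, had the lowest log2 fold change among the members, -0.16 ± 0.24 (adjusted p = 0.6; -0.39 and 0.322 after scaling), with 5.54 ± 1.24 against 6.57 ± 2.53 TPM.

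Among the St3gal genes, which link sialic acid to galactose, St3gal1 and St3gal2 rose in the TPM as deposited and 3 others did not pass. St3gal1 (Entrez 20442, chr15:67102875-67176946), which caps core 1 O-glycans, had 5.62, 7.81, 6.71 and 9.97 TPM in hSKP2-KI and 3.49, 4.54, 4.61 and 3.81 TPM in WT samples. The genotypes were separate. It rose by 0.72 ± 0.16 (adjusted p = 0.00798), and by 0.49 ± 0.14 (adjusted p = 0.0484) in the scaled values, where the call held only without hSKP2-KI replicate 1 and was lost in the other 7 fits that left out hSKP2-KI replicate 2, 3 or 4 or WT replicate 1, 2, 3 or 4 (adjusted p 0.0299 to 0.113 over all 8). Under quantile normalization its adjusted p was 0.0821, and without the 20 most abundant genes 0.0657. St3gal2, which acts on gangliosides and O-glycans, rose by 0.67 ± 0.15 (adjusted p = 0.0104; 0.0582 after scaling).

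St3gal3 (Entrez 20441, chr4:117932152-118134972), which sialylates lactosamine, was the most abundant of the family with 19.7, 21.7, 20.5 and 25.4 TPM in hSKP2-KI and 22, 21.1, 20.1 and 22.7 TPM in WT samples. These overlapped and differed by 0.02 ± 0.09 on the log2 scale (adjusted p = 0.887; -0.24 and 0.114 after scaling). St3gal5, the GM3 synthase that uses lactosylceramide, had 10.6 ± 0.914 against 10.4 ± 1.64 TPM (adjusted p = 0.784; 0.183 after scaling). As shares of the family, St3gal1 took 15.7% ± 2.11 in hSKP2-KI and 10.2% ± 1.16 in WT prostates, and St3gal3 took 46.0% ± 2.40 and 53.4% ± 4.50.

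St6gal1 (Entrez 20440, chr16:23224729-23360350), which sialylates N-glycans, had 3.41, 4.06, 3.12 and 4.28 TPM in hSKP2-KI and 0.919, 2.14, 2.93 and 1.5 TPM in WT samples. WT replicate 3 lay just under the lowest knock-in sample. St6gal1 rose by 0.76 ± 0.20 (adjusted p = 0.0178), and differed by 0.57 ± 0.20 (adjusted p = 0.0895) after scaling, where the groups overlapped. St6galnac2 (Entrez 20446, chr11:116676703-116695782), which adds sialic acid to the GalNAc of O-glycans, had 6.72, 6.08, 6.41 and 8.61 TPM in hSKP2-KI and 2.59, 5.81, 3.59 and 3.95 TPM in WT samples. All knock-in samples were higher, and the log2 fold change was 0.70 ± 0.18 (adjusted p = 0.0161; 0.0739 after scaling). St6galnac4 (Entrez 20448, chr2:32587078-32599696), the most abundant of its family, had 16.9, 12.6, 20.5 and 20.4 TPM in hSKP2-KI and 16.0, 18.2, 25.8 and 16.2 TPM in WT samples, which overlapped (log2 fold change -0.10 ± 0.18, adjusted p = 0.639; -0.36 and 0.234 after scaling). Its neighbour St6galnac6, a ganglioside sialyltransferase that starts 13 bases past the end of St6galnac4, rose by 0.67 ± 0.13 (adjusted p = 0.00498; 0.0547 after scaling). St6galnac4 took 61.1% ± 6.21 of the family's TPM in WT and 46.0% ± 8.19 in hSKP2-KI prostates, and St6galnac6 took 25.6% ± 4.11 and 34.9% ± 8.85.

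Among fucosyltransferases, Fut8 rose in the TPM as deposited, as did Fut10, whose entry in the test rested on its hSKP2-KI samples alone, out of 5 tested. Fut8 (Entrez 53618, chr12:77237430-77475998), the enzyme that adds core fucose to N-glycans, had 13.4, 14.9, 14.1 and 14.9 TPM in hSKP2-KI and 7.53, 8.99, 7.92 and 8.72 TPM in WT samples. The spread within each genotype was small beside the gap between them, and the means were 14.3 ± 0.734 and 8.29 ± 0.679 TPM, a ratio of 1.73. On the log2 scale Fut8 rose by 0.72 ± 0.09 (adjusted p = 0.000905), and by 0.48 ± 0.06 (adjusted p = 0.00336) once scaled, and the call held in 8 of 8 fits with a sample left out in both. Fut8 was the member with the smallest adjusted p in both scalings.

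Fut2 (Entrez 14344, chr7:45648591-45666394), the secretor-type fucosyltransferase that makes H antigen in mucosae and secretions, was the most abundant of the family and did not differ by the test. It had 58.0, 41.2, 56.9 and 46.3 TPM in hSKP2-KI and 50.5, 60.4, 45.0 and 46.5 TPM in WT samples, with overlapping ranges (log2 fold change -0.01 ± 0.13, adjusted p = 0.977; -0.27 and 0.214 after scaling). As shares of the family, Fut8 took 17.7% ± 2.15 in hSKP2-KI and 11.6% ± 1.14 in WT prostates, and Fut2 took 61.8% ± 5.59 and 70% ± 1.94. Fut10 had 1.43 ± 0.199 against 0.873 ± 0.135 TPM (adjusted p = 0.0393; 0.193 after scaling), and this call was lost whichever sample was left out (adjusted p 0.0513 to 0.0985).

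**Figure D3:**
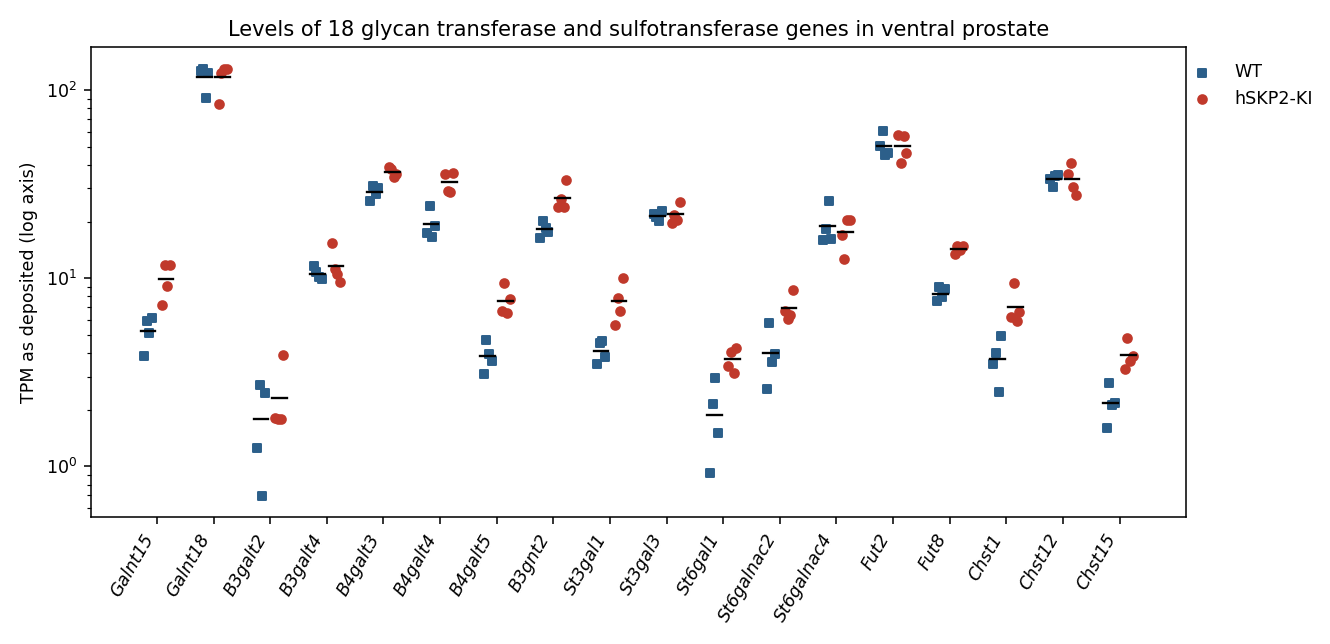
TPM as deposited (log axis) of 18 genes in every sample, with WT as blue squares, hSKP2-KI as red circles and a bar at each mean. Fut8, B4galt4, B4galt5, Galnt15, St3gal1 and Chst15 show separate genotypes, while the abundant Galnt18, Fut2, Chst12 and St3gal3 overlap.

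Of the 9 sulfotransferases tested, 4 (Chst1, Chst2, Chst7 and Chst15) rose in the TPM as deposited. Chst15 (Entrez 77590, chr7:132235779-132323534), which adds a second sulfate to GalNAc in chondroitin sulfate, had 3.31, 4.80, 3.64 and 3.86 TPM in hSKP2-KI and 1.60, 2.76, 2.13 and 2.18 TPM in WT samples. The genotypes did not overlap, and hSKP2-KI replicate 2 was the highest. Chst15 rose by 0.63 ± 0.14 (adjusted p = 0.00964), and by 0.44 ± 0.12 (adjusted p = 0.0436) once scaled. This latter call held only without WT replicate 2 and was lost without hSKP2-KI replicate 1, 2, 3 or 4 or WT replicate 1, 3 or 4 (adjusted p 0.0452 to 0.102 over the 8 fits), and under quantile normalization the adjusted p was 0.109.

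Chst1 (Entrez 76969, chr2:92599632-92615252), which sulfates galactose in keratan sulfate, had 6.19, 9.45, 5.89 and 6.58 TPM in hSKP2-KI and 3.49, 4.00, 2.49 and 4.94 TPM in WT samples. Every knock-in sample was higher, and the log2 fold change was 0.77 ± 0.18 (adjusted p = 0.0109; 0.0667 after scaling). Chst2, which sulfates N-acetylglucosamine, rose by 0.56 ± 0.14 (adjusted p = 0.014; 0.0767 after scaling). Chst7 rose by 0.44 ± 0.14 (adjusted p = 0.0343; 0.22 after scaling), a call in the deposited TPM that was kept only without hSKP2-KI replicate 3 or WT replicate 3 (adjusted p 0.0286 to 0.0903). The chondroitin sulfotransferase Chst12 (Entrez 59031, chr5:140505569-140525238), the most abundant of the family, had 35.8, 40.9, 30.4 and 27.8 TPM in hSKP2-KI and 33.5, 30.4, 34.9 and 35.4 TPM in WT samples. These overlapped (log2 fold change -0.01 ± 0.12, adjusted p = 0.972; -0.27 and 0.214 after scaling). Chst11, Chst13 and the dermatan sulfotransferase Chst14, which act on the same chains, passed in neither scaling, and neither did Chst10.

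Markers of several cell types differed alongside these genes, and their part in the results was not tested. All 6 fibroblast markers rose in the TPM as deposited (2 after scaling), and their sum was 759, 1333, 989 and 878 TPM in hSKP2-KI and 420, 605, 524 and 541 TPM in WT samples. The sample highest in fibroblast markers was hSKP2-KI replicate 2, which was also highest in macrophage markers (343 TPM, against 165 to 184 TPM in the other knock-in samples). The smooth muscle (4261 TPM), basal (424 TPM), urothelial (1014 TPM) and T cell (7.31 TPM) sums were highest in hSKP2-KI replicate 2 as well. Of the 21 members that rose in the deposited TPM, 9 had their highest value in that sample (among them B4galt5, Chst1 and Chst15), 9 in hSKP2-KI replicate 4 (among them Fut8, Galnt15, B4galt4 and St3gal1), 2 in replicate 1 and 1 in replicate 3. Replicates 2 and 4 also had the largest factors of median-ratio scaling, 1.11 and 1.124, against 1.067 and 1.097 in replicates 1 and 3. A larger factor means higher deposited TPM of the typical gene, and the share of all genes highest in each sample was not counted. hSKP2-KI replicate 4 was the highest in the proximal luminal sum (537 TPM) and the endothelial sum (54.0 TPM). All 5 smooth muscle markers rose (2 after scaling, sums of 2747 to 4261 against 1884 to 2355 TPM), as did all 5 markers of proximal luminal cells (4 after scaling, 329 to 537 against 116 to 125 TPM) and 3 of 3 urothelial markers tested (2 after scaling, 720 to 1014 against 398 to 662 TPM). Of the macrophage markers 5 of 6 rose (0 after scaling, 165 to 343 against 72.3 to 155 TPM), of the endothelial markers 4 of 5 (1 after scaling, 30.0 to 54.0 against 17.6 to 26.5 TPM). The sums in these ranges are of the deposited TPM. After scaling the urothelial sums overlapped (640 to 914 against 481 to 709), as did the macrophage sums (153 to 309 against 87.3 to 173). Most of the urothelial sum was Upk1a (822 ± 155 against 560 ± 117 TPM), which was not called after scaling (limma adjusted p = 0.298). The epithelial markers (2 of 5), basal markers (2 of 4) and T cell markers (1 of 2 tested) had fewer calls and 0 after scaling, and B and plasma cell markers had 0 of 5 in both.

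The 4 genes that passed in the deposited TPM and all 3 other scalings are shown by their promoter windows. Each window is the 250 bases before the most upstream start that the RefSeq promoter table (GRCm38.p6) holds for the gene. That start can lie inside the gene span given above, which covers all RefSeq transcripts: the Galnt15 and Fut8 windows lie within the span and the B4galt4 window partly so. Capitals mark matches, on either strand, to the GC box GGGCGG or CCAAT. The letters TATAAA and the E-box CACGTG were also searched and had no match in these windows. The windows are chr14:32028853-32029102 (plus strand) for Galnt15, chr16:38742009-38742258 (plus strand) for B4galt4, chr2:167349179-167349428 (minus strand) for B4galt5 and chr12:77237854-77238103 (plus strand) for Fut8.
Galnt15: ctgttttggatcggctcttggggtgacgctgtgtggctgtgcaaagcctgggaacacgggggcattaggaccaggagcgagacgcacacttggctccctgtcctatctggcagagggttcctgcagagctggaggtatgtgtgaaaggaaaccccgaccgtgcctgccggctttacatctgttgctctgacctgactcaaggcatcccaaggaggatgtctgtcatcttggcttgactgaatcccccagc
B4galt4: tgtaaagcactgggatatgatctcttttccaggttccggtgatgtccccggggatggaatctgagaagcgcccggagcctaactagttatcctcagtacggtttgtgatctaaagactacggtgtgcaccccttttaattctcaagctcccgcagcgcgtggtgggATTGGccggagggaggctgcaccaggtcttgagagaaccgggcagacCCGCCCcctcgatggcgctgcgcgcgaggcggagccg
B4galt5: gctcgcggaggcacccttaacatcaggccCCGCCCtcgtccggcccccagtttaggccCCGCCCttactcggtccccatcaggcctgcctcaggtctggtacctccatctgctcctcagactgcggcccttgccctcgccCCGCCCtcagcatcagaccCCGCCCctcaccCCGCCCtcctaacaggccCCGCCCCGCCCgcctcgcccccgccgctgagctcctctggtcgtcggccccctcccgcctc
Fut8: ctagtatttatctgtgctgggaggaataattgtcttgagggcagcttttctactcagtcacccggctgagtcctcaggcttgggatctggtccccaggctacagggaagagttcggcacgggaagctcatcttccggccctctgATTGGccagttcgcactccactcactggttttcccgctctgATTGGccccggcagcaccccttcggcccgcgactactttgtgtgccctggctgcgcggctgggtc
The windows share no one match. B4galt5 held 7 GC boxes, of which the last 2 overlap, at 73.2% G and C. B4galt4 held 1 GC box and 1 CCAAT, Fut8 held 2 CCAAT and no GC box, and Galnt15 held none of the 4 motifs. Of the 49 members tested, 37 had an entry in the promoter table. Of these windows 67.6% held a GC box, beside 59.4% of the 10376 windows of all genes tested and 33.0% of all 27025 windows. CCAAT was in 32.4%, beside 35.9% and 34.5%, CACGTG in 10.8%, beside 8.47% and 6.04%, and TATAAA in 0 of 37, beside 6.54% and 13%. A match says only that these letters are present.

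Ratios were compared within each sample for enzymes that share or compete for an acceptor, or, for B4galt1 and B3gnt2, that alternate along a chain. Such a ratio depends on library scaling only through the added 1. Of 6 pairs, only the lactosylceramide synthases had ratios that did not overlap. The log2 ratio of B4galt5 to B4galt6 was -2.19, -1.43, -1.96 and -1.80 in hSKP2-KI and -2.46, -2.20, -2.64 and -2.58 in WT samples. The lowest knock-in ratio was barely above the highest WT ratio. The difference was 0.63 (exact permutation p = 0.0286, two-sided, which is the lowest that 4 samples against 4 can give), and it did not pass after adjustment over the 6 pairs (0.171). The ratio of St3gal4 to St6gal1, enzymes that place sialic acid in different linkages on lactosamine, was -1.08 ± 0.11 in hSKP2-KI and -0.67 ± 0.35 in WT (exact permutation p = 0.0571, adjusted 0.171). With 0.1 added in place of 1, and likewise after median-ratio scaling, the exact permutation p of this pair was 0.143. St3gal4 was below 1 TPM in every WT sample, so the added 1 weighs in this ratio as well.

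The other 4 ratios differed by less than the spread between samples. The difference was 0.09 for Galnt1 to Galnt3 (exact permutation p = 0.486), -0.08 for B4galt1 to B3gnt2, the alternating enzymes of polylactosamine (exact permutation p = 0.343), -0.07 for Fut1 to Fut2 (exact permutation p = 0.8) and -0.11 for Chst3 to Chst11 (exact permutation p = 0.657). Fut1 and Chst3 were below the filter, so the added 1 weighs heavily in their ratios.

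**Figure D4:**
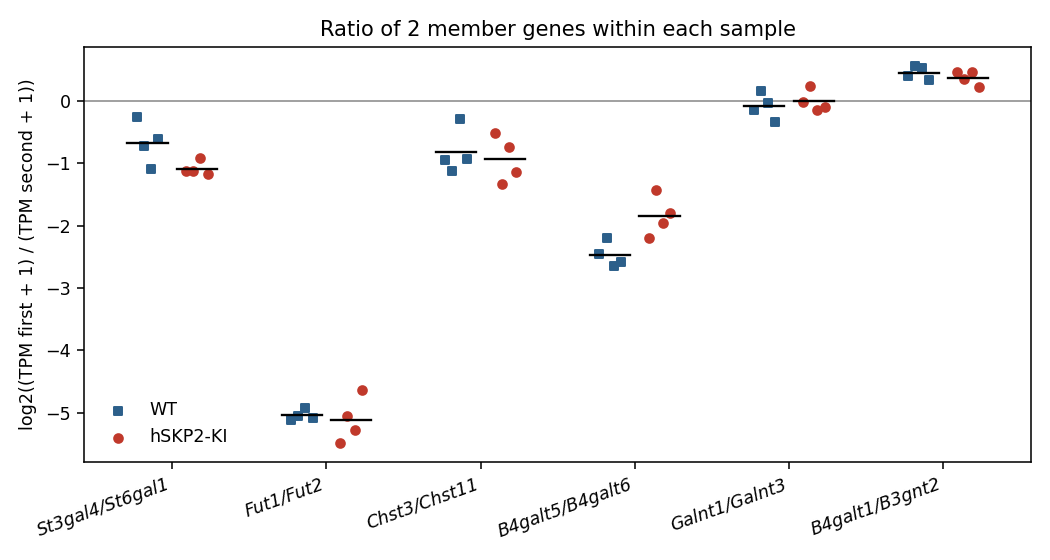
Log2 ratio of TPM + 1 of 2 genes in each sample for 6 pairs, with WT as blue squares, hSKP2-KI as red circles and a bar at each mean. The B4galt5 to B4galt6 ratios lie between -2.19 and -1.43 in hSKP2-KI and between -2.64 and -2.20 in WT prostates, and the other 5 pairs overlap.

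Genes that supply donors or build the same chains were described from 10 lists with 106 genes, of which 87 were tested. In the TPM as deposited 40 of these rose (46.0%, beside the 32.7% of all genes) and 0 fell (beside 1.23%). After median-ratio scaling 13 rose (14.9%, beside 6.92%) and 5 fell (5.75%, beside 4.25%). In sialic acid supply and removal 3 of 8 rose (2 after scaling, where 1 fell). Cmas, which activates sialic acid as CMP-sialic acid, rose by 0.90 ± 0.13 (157 ± 15.3 against 84.6 ± 17.0 TPM, adjusted p = 0.00152), and Slc35a1, which carries CMP-sialic acid into the Golgi, by 0.61 ± 0.11 (adjusted p = 0.00374). Both passed after scaling (0.0136 and 0.0395), whereas Nans, the sialic acid synthase upstream of Cmas, fell there by 0.40 (adjusted p = 0.0119) with overlapping TPM as deposited (193 ± 9.82 against 211 ± 17.7).

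The N-glycan branching list had 7 of 11 rising (3 after scaling). Mgat3, which adds bisecting N-acetylglucosamine, rose by 1.27 ± 0.20 (6.21 ± 1.86 against 1.95 ± 0.503 TPM, adjusted p = 0.00215), Mgat4b by 0.81 ± 0.12 (adjusted p = 0.0021) and the mannosidase Man1a2 by 0.62 ± 0.12 (adjusted p = 0.0049). All 3 passed after scaling. For chondroitin and dermatan chains 8 of 11 rose (2 after scaling), with Dsel, a dermatan sulfate epimerase homologue, up by 1.21 ± 0.17 (6.10 ± 1.54 against 2.02 ± 0.238 TPM, adjusted p = 0.00141) and the chain initiator Csgalnact1 by 0.85 ± 0.15 (adjusted p = 0.00386). For heparan chains 7 of 16 rose (2 after scaling, where 3 fell), led by the sulfatase Sulf1 (0.96 ± 0.14, adjusted p = 0.0018) and the sulfotransferase Hs3st1 (0.94 ± 0.11, adjusted p = 0.000638), and Extl1, Ndst1 and Hs2st1 were those that fell.

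Of the UDP-sugar list 7 of 15 rose (2 after scaling), with Gfpt2 of the hexosamine pathway up by 0.81 ± 0.15 (adjusted p = 0.00456) and Ugdh, which makes UDP-glucuronic acid, by 0.73 ± 0.12 (adjusted p = 0.00318). B4galnt2, which makes the Sda antigen on sialylated galactose, rose by 1.07 ± 0.21 (57.0 ± 11.7 against 27.2 ± 8.37 TPM, adjusted p = 0.00548), and 2 of the 6 GalNAc transfer genes rose in all (1 after scaling). In the list of O-glycan cores 2 of 4 rose. The 1 that also rose after scaling was Gcnt2 (0.60 ± 0.11, adjusted p = 0.0048), which branches polylactosamine and does not make a core. In polysialylation the 1 gene tested rose, in the deposited TPM only. Of the fucose genes 3 of 9 rose in the deposited TPM, 0 after scaling, where Fuk fell. None of the 6 genes of sulfate donor supply passed in either scaling. The genes named here from the lists of UDP-sugars, GalNAc transfer, O-glycan cores, chondroitin, dermatan and heparan chains also passed after scaling, apart from Extl1, Ndst1 and Hs2st1, which fell there.

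Some rows share exons with a neighbour in GENCODE vM21, and the strand setting of the counting is not given in the sources used here. On the same strand 90.0% of Galnt2's exon bases lie in the readthrough model Gm20388 and 58.6% of B3gnt2's in Gm28048, and 28.2% of B4galt2's lie in Ccdc24 (0.742 TPM). On the opposite strand 14.5% of B4galt3's lie in Ppox (25.1 TPM) and 18.1% of B3gnt8's in Bckdha (180 TPM). Smaller or weaker overlaps include B3gnt9 with D230025D16Rik (16.5%, partner at 13.3 TPM), Galnt4 with Poc1b on the same strand (8.25%, 7.73 TPM), B3galt2 with Cdc73 (7.31%, 11.4 TPM) and St6galnac2 with 1810032O08Rik (7.01%, 5.10 TPM). The values of genes with such overlaps are uncertain. For Fut8 the shared stretch was 0.949% of exon bases, for Chst15 17.9% (Gm10584 at 0.0714 TPM), and none was found for B4galt4, B4galt5, Galnt15 or St3gal1.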

How the data were processed

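The authors made one poly(A) RNA library from the ventral prostate of each of 8 mice (4 hSKP2-KI, 4 WT) aged 12 months. Reads were trimmed, quality checked and mapped in CLC software, and the submitters' processing notes name mm10 and GRCm38. The version, annotation and counting options are not given in the sources used here. The authors deposited one table of TPM, which carries no read depth. The table holds 0 columns from other samples.

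The 13080 of 36333 genes that reached 1 TPM in 4 or more samples were fitted on log2(TPM + 1) with limma 3.58.1 (trend) in R 4.3.3, with Benjamini-Hochberg adjustment over all of them (threshold 0.05). The added 1 understates changes of low genes. In simulated data with 200 of 13080 genes changed 2-fold, 89.5% were recovered, and unchanged genes made up 3.24% of calls. The simulation held no shift of the whole table. Its change also exceeded that of every member in the deposited TPM, where the highest log2 fold change was 0.83. These shares therefore do not measure recovery or false calls among the members. Pair ratios were compared by a two-sided exact permutation test over 70 assignments. Members, lists and tests were chosen with earlier results of these data known. Per-sample values were given for members called in both scalings and, per family, the most abundant member and the one with the largest change. Galnt10 and a few other called members were named outside this rule, after their values were seen. Gfus, Fcsk and Bpnt2 are listed under older symbols. Alternatives were a pseudocount of 0.1, no filter, a filter at a mean of 5 TPM, median-ratio scaling, quantile normalization, a replicate block, rescaling without the 20 most abundant genes, and leaving out each sample; leaving out samples and the block on median-ratio values were added after the data were seen. All 72 genes matched RefSeq by Entrez identifier. Python 3.11.15 with matplotlib 3.10.9 drew the figures. Some markers and a motif are not reported here.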

Additional observations from a re-analysis of the deposited data

Results flagged for a closer look

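Of 66 groups of 4 samples checked among the named genes, family sums and pair ratios, 6 had 1 sample far from the rest, and chance flags about 1 in 20 groups. Galnt18 was low in hSKP2-KI replicate 1 (84.9 TPM, others 124 to 130 TPM) and in WT replicate 3 (91.2 TPM, others 123 to 130 TPM). As Galnt18 is the largest part of its family, the Galnt sum was also low in hSKP2-KI replicate 1 (306 TPM, others 367 to 370 TPM). B3galt2 was high in hSKP2-KI replicate 4 (3.89 TPM, others 1.78 to 1.81 TPM). The B3galt sum was high in hSKP2-KI replicate 1 (31.6 TPM, others 23.5 to 24.2 TPM) and low in WT replicate 3 (20.7 TPM, others 23.0 to 23.4 TPM). Galnt18 and B3galt2 were called in neither scaling.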

How the results depend on the processing

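The scaling decided most calls. Of 21 members that rose in the TPM as deposited, 6 rose after median-ratio scaling, 4 under quantile normalization and 5 without the 20 most abundant genes, and members that fell numbered 0 in the deposited TPM and 1 after median-ratio scaling. Of the pathway genes 40 rose in the deposited TPM, beside 13, 13 and 11 under these scalings, and those that fell went from 0 to 5, 4 and 2. Shares of all genes were not counted for quantile normalization or the rescaling taken singly. Nor were they counted for the other pseudocount and filters, the block or the fits with a sample left out. Member and pathway counts in those settings therefore cannot be set against the table as a whole. Family sums moved too. As log2 differences, median-ratio scaling took the Galnt sum from 0.16 to -0.11, B3galt from 0.19 to -0.08 and B4galt from 0.42 to 0.15. B3gnt went from 0.35 to 0.08, St3gal from 0.23 to -0.04 and St6gal from 1.03 to 0.76. St6galnac went from 0.31 to 0.04, Fut from 0.18 to -0.09 and Chst from 0.20 to -0.07. All moved down by a similar amount, because the scaling divides each library by a single factor. The St6gal sum kept the largest difference, but its samples overlapped between genotypes after scaling, as did those of every other family. The pseudocount, the filters and the block kept the members' count in the deposited TPM between 15 and 21.

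Leaving out single samples left 18 to 20 members rising in the deposited TPM and 0 falling, and 28 to 43 pathway genes rising and 0 to 1 falling. After median-ratio scaling it left 2 to 5 members rising (2 without hSKP2-KI replicate 4 or WT replicate 1, 3 without hSKP2-KI replicate 2, WT replicate 3 or WT replicate 4), 0 to 0 falling, 8 to 14 pathway genes rising (8 without hSKP2-KI replicate 4) and 2 to 4 falling (4 without hSKP2-KI replicate 3, 3 without hSKP2-KI replicate 1 and 2 without each other sample). The cause was not tested, beyond that fewer samples were fitted. With the replicate number as a replicate block, 20 members rose in the deposited TPM, and 5 rose and 0 fell after median-ratio scaling. Deviations of samples of the same number from their genotype mean correlated at 0.22, -0.11, 0.17 and -0.01. Samples of different numbers were not compared, so these values cannot show whether the numbers pair the mice. Of the values recomputed for single named genes, 252 kept their sign and side of the threshold, 46 kept their sign and lost the call, and 23 changed sign without a call on either side. These 23 belonged to Galnt18, B3galt4, B3galt2, St3gal3, St6galnac4, Fut2 and Chst12, so no direction can be read for these 7 genes, and 0 called values reversed.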
